A study of Homo sapiens with 6 samples.

Results

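The kallikrein genes form a cluster of secreted serine protease genes on chromosome 19. The 10 members described here, KLK1, KLK2, KLK3, KLK4, KLK5, KLK6, KLK10, KLK11, KLK12 and KLK15, were taken by gene symbol from an RNA-Seq table of 58024 genes. All 10 were found in the table, and 8 of them averaged 0.1 FPKM or more over the 6 libraries and were tested between enzalutamide resistant and parental cells. Along the locus the change was not in one direction, with KLK3, KLK2 and KLK15 lower and KLK1, KLK4, KLK10 and KLK11 higher in the resistant cells.

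C4-2B is an established human prostate cancer line, a bone-metastatic subline of C4-2 cells, which came from LNCaP xenografts grown in castrated nude mice. The experiment held 3 libraries of parental cells, labelled as the control, and 3 libraries of enzalutamide resistant cells. Enzalutamide is an antiandrogen, a drug that blocks the action of androgens on prostate cells. The resistant cells were passaged in rising enzalutamide, from 1 to 20 µM, over at least 6 months, the surviving cells were pooled, and the line was then kept in 5 µM enzalutamide, while parental cells were carried in the vehicle dimethyl sulfoxide. The protocol names a treatment with 10 µM enzalutamide before RNA extraction and can be read as covering the resistant cells or both lines, so the exposure of the parental cells at harvest is left unstated. Because only the resistant line was kept in the drug, effects of its presence and of the resistant state cannot be told apart. Both lines were grown in RPMI-1640 with 10% serum, and nothing states that the libraries of a group came from separate cultures, so that all p-values measure only the spread between these libraries, which may be technical.

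Kallikreins are made as inactive precursors and are activated by cleavage, often by one another. KLK3 (prostate-specific antigen) and KLK2 are produced by luminal prostate epithelium under the control of androgens, and KLK3 cleaves the semenogelins of the seminal clot. KLK3 is the serum marker used to follow prostate cancer and is a classical readout of androgen action, while most other kallikreins are made mainly in other epithelia such as skin.

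The values are FPKM, in which fragment counts are divided by transcript length and by the number of fragments mapped. This scales for length and depth only, and results under other scalings between libraries are given at the end. The columns summed to between 792975 and 870110 FPKM, and between 21956 and 27153 genes were above 0 in a library. Depth, which the table does not state, was estimated at 13600000 to 20700000 reads with fragments taken as 200 bases, and a single read on a transcript of 1500 bases was then worth 0.0372 to 0.0563 FPKM. Short RNAs that every cell uses were among the genes listed at 0, so that a 0 is reported here only as listed at 0. Differences are on the scale of log2(FPKM + 0.1) and were tested with limma over 24468 genes, with Benjamini-Hochberg adjustment and a threshold of 0.05, and they understate the change of low genes. The luminal markers matched the stated cell type, with all 11 of that list tested and their sum between 1069 and 1903 FPKM in every library. Of the 6 basal markers, KRT5, TP63 and NGFR were listed at 0 in every parental library and reached at most 0.227 FPKM in a resistant library. The other 3 were not at 0, with ITGA6, an integrin chain, at 11.1, 13.0 and 12.1 FPKM and KRT14 at 0.587, 0.493 and 0.927 FPKM in parental libraries and KRT15 at 1.60, 1.80 and 1.78 FPKM in resistant libraries.

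KLK3 was the member with the largest fall. It lies at chr19:50854915-50860764 on the plus strand (GRCh38, GENCODE v44). In the parental libraries 0, 1 and 2, the order used for all values, it stood at 2489, 2321 and 2857 FPKM, and in the resistant libraries at 46.8, 43.5 and 41.8 FPKM. Every resistant library lay far below every parental library, and the resistant values differed from each other by only a few FPKM. The mean was 2556 ± 274 FPKM (SD, n = 3) in parental and 44.04 ± 2.58 FPKM (SD, n = 3) in resistant cells, a 58.0-fold lower level. The log2 fold change was -5.85 (SE 0.09, 95% interval -6.08 to -5.62, limma, Benjamini-Hochberg adjusted p = 1.10e-06). Of the 24468 genes tested, 69 had a lower log2 fold change, and among the 8936 tested genes averaging 10 FPKM or more 50 did. By level, the rank of KLK3 among protein-coding genes went from 10, 8 and 7 in the parental libraries to 2493, 2852 and 2992 in the resistant libraries.

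KLK2, a trypsin-like protease that cleaves the KLK3 precursor to its active form, also fell but by less. The gene (chr19:50861568-50880567, plus strand) had 459, 426 and 499.7 FPKM in parental and 78.8, 82.8 and 84.2 FPKM in resistant cells. The groups did not overlap and the spread within each was small. The means were 462 ± 36.9 and 81.9 ± 2.81 FPKM (SD, n = 3 each), 5.63-fold lower in resistant cells, with a log2 fold change of -2.49 (SE 0.08, limma, Benjamini-Hochberg adjusted p = 7.22e-06). Its rank among protein-coding genes was 151 to 167 in the parental and 1305 to 1360 in the resistant libraries.

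The unequal fall of these neighbours showed in their ratio within each library. KLK3 over KLK2 was 5.42, 5.45 and 5.72 in parental and 0.594, 0.526 and 0.496 in resistant cells. KLK3 was the more abundant of the pair in every parental library and the less abundant in every resistant library. The log2 ratio differed by -3.36 between the groups (exact two-sided permutation test, p = 0.1, the smallest that 3 libraries against 3 allow). KLK3 and KLK2 are close paralogs, and their coding sequences were identical at 668 of 783 aligned bases (85.3%). Of the 50-base words in their annotated transcripts, however, only 11 of 5074 of KLK3 (0.217%) and 31 of 6861 of KLK2 (0.452%) occurred in another gene. The 11 of KLK3 were shared with KLK2, while KLK2 shared the most words, 20, with STEAP4. Few reads of that length from KLK3 or KLK2 would thus match another gene as well.

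The upstream sequences of KLK3 and KLK2 are shown because both genes fell and both are textbook androgen-induced genes, with KLK4, which rose, beside them. They were taken from RefSeq (GRCh38.p14) for the 250 bases before the start site. Of the 10 members, 9 had an entry, with 13 start sites in all, and KLK1 had none. Capitals mark a match, on either strand, to the inverted repeat of steroid hormone response elements, searched as GNACA and GTNCT with 4 bases between them. The KLK3 stretch is chr19:50854665-50854914 (plus strand) and the KLK4 stretch, before the outer of its start sites, is chr19:50911396-50911645 (minus strand). For KLK2 the stretch is cut to the 43 bases around the match that no annotated exon covers, chr19:50873255-50873297 (plus strand), since other KLK2 transcripts start further upstream.
KLK3: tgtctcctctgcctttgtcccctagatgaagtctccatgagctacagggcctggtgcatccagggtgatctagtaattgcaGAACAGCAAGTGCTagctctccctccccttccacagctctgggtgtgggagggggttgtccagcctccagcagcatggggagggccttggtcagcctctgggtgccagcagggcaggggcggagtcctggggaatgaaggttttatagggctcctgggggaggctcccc
KLK2: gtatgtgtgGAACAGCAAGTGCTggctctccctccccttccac
KLK4: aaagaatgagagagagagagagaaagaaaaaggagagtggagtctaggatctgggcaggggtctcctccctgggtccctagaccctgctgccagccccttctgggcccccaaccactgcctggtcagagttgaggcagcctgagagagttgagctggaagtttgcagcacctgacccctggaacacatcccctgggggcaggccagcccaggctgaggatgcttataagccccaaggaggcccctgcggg

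The same 14 bases, GAACAGCAAGTGCT, lie 169 to 156 bases before the KLK3 start and 175 to 162 bases before the KLK2 start. Set in register at this match, the 43 bases of KLK2 were identical to KLK3 at 38 positions, and over the whole 250 bases the longest shared run was 80 bases. The other 7 members with an entry had no match in this window. Among them were KLK15, which also fell, and members called higher, not called and not tested. Of all 35116 RefSeq promoters searched over the same length, 0.592% had a match. The half-site AGAACA, which overlaps the first bases of that match, was found in KLK3 alone of the members and in 12.4% of all promoters. The TATA sequence TATAAA, on either strand, was present in KLK3, KLK2 and KLK15 and in 10.7% of all promoters. These are matches of letters only, and binding was not measured.

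KLK15 was the third member to fall. Its product can cleave the KLK3 precursor in vitro. The gene (chr19:50825289-50837213, minus strand) was at 6.43, 7.02 and 8.83 FPKM in the parental and at 3.20, 1.11 and 1.23 FPKM in the resistant libraries. All resistant values lay below all parental values, with resistant library 0 nearest to them. The mean fell 4.02-fold, from 7.42 ± 1.25 to 1.85 ± 1.17 FPKM (SD, n = 3 each), with a log2 fold change of -2.10 (SE 0.41, limma, Benjamini-Hochberg adjusted p = 0.00687). Without resistant library 0 the fall of the mean was 6.34-fold. An antisense gene overlaps KLK15, and the strand setting of the quantification is not given in the sources used here. However, none of the 3430 words of 50 bases of KLK15, read on either strand, occurred in another gene.

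KLK4 moved the other way. This androgen-regulated protease, known also for its role in enamel formation, is encoded at chr19:50906351-50911395 on the minus strand. It stood at 139, 133 and 146 FPKM in parental and at 251, 260 and 287 FPKM in resistant cells. The groups did not overlap. The mean rose 1.91-fold, from 139 ± 6.41 to 266 ± 18.6 FPKM (SD, n = 3 each), with a log2 fold change of 0.93 (SE 0.08, limma, Benjamini-Hochberg adjusted p = 0.000189). This is just under a 2-fold change, and KLK4 was not called where at least 2-fold was also required. With KLK3 and KLK2 lower, KLK4 was the most abundant kallikrein in every resistant library, at ranks 308, 318 and 279 among protein-coding genes.

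KLK1, tissue kallikrein, which releases kinins from kininogen, went from a low to a moderate level. At chr19:50819146-50823787 on the minus strand, it had 0.753, 2.26 and 0.525 FPKM in parental and 13.1, 13.5 and 17.0 FPKM in resistant libraries. Parental library 1 was the highest of its group, and still well under every resistant library. The mean was 12.3-fold higher in resistant cells (1.18 ± 0.942 against 14.5 ± 2.14 FPKM, SD, n = 3 each), with a log2 fold change of 3.75 (SE 0.49, limma, Benjamini-Hochberg adjusted p = 0.00128). Without parental library 1 the mean was 22.7-fold higher. KLK1 shares 74.8% of aligned coding bases with KLK3 and 78.0% with KLK2, but none of its 2428 words of 50 bases occurred in another gene.

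KLK11, a trypsin-like kallikrein of several epithelia, had the largest rise. The parental libraries gave 0.0941, 0 and 0.149 FPKM, which is near what single reads give, and the resistant libraries gave 44.6, 40.5 and 52.9 FPKM. The gene (chr19:51022216-51028039, minus strand) was thus barely detected in parental cells and reached the level of KLK3 in resistant cells. The log2 fold change was 8.08 (SE 0.36, limma, Benjamini-Hochberg adjusted p = 2.37e-05), and 33 of the 24468 genes tested had a higher one. Its size depended on the pseudocount, with 5.44 at 1 FPKM and 9.70 at 0.01 FPKM.

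KLK10 (chr19:51012739-51020175, minus strand), a kallikrein often silenced in tumours, was also called higher, at a level near the detection limit. Its values were 0.0448, 0 and 0 FPKM in parental and 0.576, 0.209 and 0.552 FPKM in resistant libraries. The resistant values were all above the parental values and all under 1 FPKM. The log2 fold change was 2.18 (SE 0.51, limma, Benjamini-Hochberg adjusted p = 0.0136), and its size depended on the pseudocount, with 0.50 at 1 FPKM and 4.56 at 0.01 FPKM. The call was lost at a threshold of 0.01, and KLK10 was not tested where a mean of 1 FPKM was required. Of its 50-base words, 5.72% occurred in other genes, mostly in an overlapping antisense gene.

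The remaining members gave no call. KLK12 (chr19:51029092-51035230, minus strand) was listed at 0.0974, 0.512 and 0.309 FPKM in parental and at 0.128, 0 and 0 FPKM in resistant libraries, and the groups overlapped. Its log2 fold change was -1.48 (SE 0.63, 95% interval -3.01 to 0.05, limma, Benjamini-Hochberg adjusted p = 0.105), and under quantile normalization it was -1.78 and passed the threshold (limma, Benjamini-Hochberg adjusted p = 0.0488). KLK6 (chr19:50958631-50969673), a kallikrein known from brain, was above 0 only in parental library 2, at 0.309 FPKM, and in resistant library 0, at 0.0651 FPKM, and was not tested. KLK5 (chr19:50943303-50953093), which acts in the shedding of skin cells, was listed at 0 in all 6 libraries. In the deposited table KLK5 to KLK9 share a single interval, and in parental libraries 0 and 1 every gene of that interval was listed at 0.

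**Figure D1:**
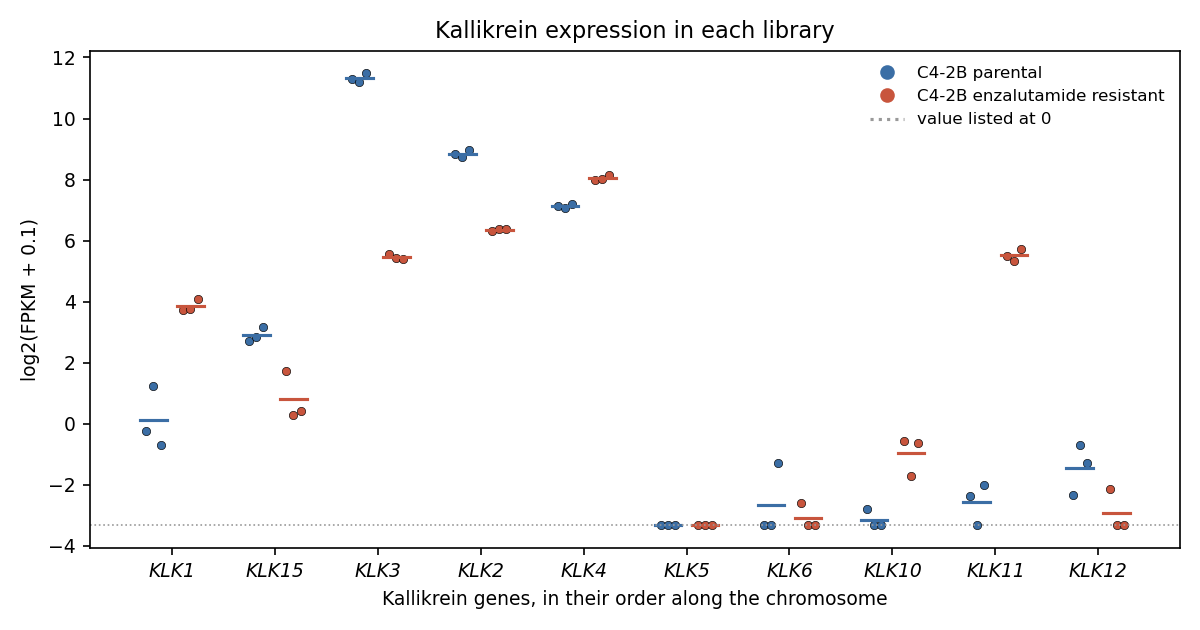
FPKM of the 10 members in each library, as log2(FPKM + 0.1), ordered by position on the chromosome. Points are libraries, short lines are means of the 3 log2 values of a group, and the dotted line marks a value of 0. KLK3 fell from 2556 to 44.04 FPKM and KLK11 rose to 46.0 FPKM, while KLK5, KLK6, KLK10 and KLK12 stayed below 1 FPKM in every library.

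Of the 8 members tested, 4 were called higher and 3 lower (limma, Benjamini-Hochberg adjusted p under 0.05), against 44.4% of all genes tested that were called in either direction, 22.1% higher and 22.3% lower. The median log2 fold change of the 8 was -0.27, and that of all tested genes was -0.05. In 7 members the groups did not overlap, 4 with every resistant library higher and 3 with every resistant library lower, against 54.8% of all genes tested, 26.6% higher and 28.1% lower. For each of these 7 the exact permutation test gave p = 0.1, the smallest p possible with 20 ways to split 6 libraries. Leaving out any single library changed none of these 7 calls. Calls were common over the whole table, and the count of calls alone does not set the kallikreins apart.

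The make-up of kallikrein expression was different in the resistant cells. Summed over the 15 kallikrein genes of the locus, it was 3095, 2889 and 3512 FPKM in the parental and 443, 448 and 489 FPKM in the resistant libraries. The mean sum was 6.88-fold lower in resistant cells, 3166 ± 317 against 460 ± 25.5 FPKM (SD, n = 3 each, exact permutation p = 0.1). KLK3 made up 80.4%, 80.3% and 81.3% of the sum in parental and 10.6%, 9.72% and 8.53% in resistant cells. The share of KLK4 was 4.51%, 4.601% and 4.15% in the parental and 56.7%, 58.0% and 58.6% in the resistant libraries. The share of KLK2 lay between 14.2% and 14.8% in parental and between 17.2% and 18.5% in resistant libraries. KLK11 took 9.06% to 10.8% of the sum in the resistant libraries and KLK1 took 2.95% to 3.47%.

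**Figure D2:**
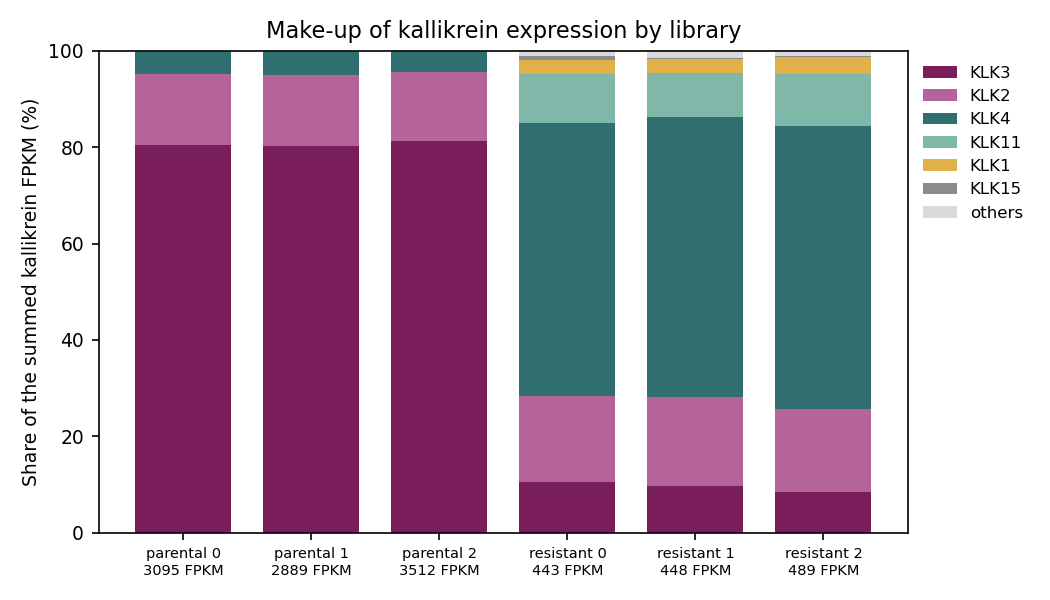
Share of each gene in the summed FPKM of the 15 kallikrein genes, in percent, with 1 bar per library and the sum printed under it. KLK3 fills 80.3% to 81.3% of the parental bars and KLK4 fills 56.7% to 58.6% of the resistant bars, over sums that are 6.88-fold lower on average.

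The order of the levels also differed. In parental cells it was KLK3, KLK2, KLK4, KLK15 and KLK1, and no neighbours in this order overlapped between libraries. Among the members in resistant cells it was KLK4, KLK2, KLK11, KLK3, KLK1, KLK15 and KLK10. There the values of KLK11 (40.5 to 52.9 FPKM) and KLK3 (41.8 to 46.8 FPKM) overlapped, so that their order is not set, while the other neighbours did not overlap. The number of kallikrein genes at 1 FPKM or more was 4, 5 and 4 in the parental libraries and 8 in each resistant library. KLK4 over KLK2 was 0.304, 0.312 and 0.292 in parental and 3.19, 3.14 and 3.41 in resistant libraries, a log2 difference of 3.42 (exact permutation p = 0.1).

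The other kallikrein genes of the list also included rises. KLK8, known from brain and skin, was listed at 0 in all parental libraries and stood at 2.00, 3.90 and 2.80 FPKM in resistant libraries (limma, Benjamini-Hochberg adjusted p = 0.00017). It belongs to the interval shared by KLK5 to KLK9, and 34.1% of its 50-base words occur in an overlapping read-through gene. KLK13 was likewise listed at 0 in parental libraries and had 2.13, 1.95 and 1.62 FPKM in resistant libraries (limma, Benjamini-Hochberg adjusted p = 0.000181). The pseudogene KLKP1, which lies between KLK2 and KLK4, was at 3.86, 5.13 and 6.35 FPKM and then at 9.94, 10.2 and 12.3 FPKM, a log2 fold change of 1.09 (SE 0.21, limma, Benjamini-Hochberg adjusted p = 0.00652). KLK14 did not pass the test, with 0, 0 and 0.169 FPKM against 0.0797, 0.3003 and 0.379 FPKM (limma, Benjamini-Hochberg adjusted p = 0.173). KLK7 and KLK9 were not tested, with no value above 0.176 FPKM. KLKB1, plasma kallikrein, is encoded on chromosome 4 and belongs to another family, and it was lower in resistant cells, with 0.505, 0.917 and 0.642 against 0, 0.1304 and 0 FPKM (log2 fold change -2.54, SE 0.51, limma, Benjamini-Hochberg adjusted p = 0.0079), a difference of -0.69 at a pseudocount of 1 FPKM and -4.81 at 0.01 FPKM.

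No tested gene reported here that flanks the cluster had a log2 fold change as far from 0 as KLK3 or KLK11. These were the members with the largest fall and rise. KLK2, KLK4, KLK10, KLK12 and KLK15 lay within the range of the flanking genes given below, and KLK1 (3.75) just above it. The 15 kallikrein genes span 265.1 kb, from 50819146 to 51084245. Within 500 kb on either side lay 87 other genes of the table reported here, of which 35 were tested. Among them 7 were called higher and 6 lower, against 44.4% of all genes tested called in either direction. The log2 fold changes of the 35 lay between -2.94 and 3.55, with a median of 0.25. The 17 that averaged 1 FPKM or more had log2 fold changes between -2.94 and 1.39, with a median of -0.32, while the 18 below 1 FPKM had a median of 0.89, so that the sign of the median depended on the level required. C19orf48, the nearest of these before KLK1, was at 335, 337 and 356 FPKM in parental and 454, 436 and 431 FPKM in resistant libraries (log2 fold change 0.36, SE 0.06, limma, Benjamini-Hochberg adjusted p = 0.0029). CTU1, a tRNA-modifying enzyme and the nearest after KLK14, was not called, at 3.87, 5.70 and 2.81 FPKM against 3.57, 4.002 and 3.86 FPKM (log2 fold change -0.06, limma, Benjamini-Hochberg adjusted p = 0.887).

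Further out, POLD1, the catalytic subunit of a replicative DNA polymerase, was higher (log2 fold change 0.66), as was EMC10, a subunit of a membrane protein insertion complex (0.49). JOSD2, a deubiquitinase, was lower (-0.94), as were CLEC11A (-1.53), VSIG10L (-1.68), CTD-2616J11.16 (-2.94), CTD-2616J11.10 (-1.51) and ETFB, an electron carrier of fatty acid oxidation (-0.32). NR1H2, FAM71E1, C19orf81, CTD-2568A17.1, CTD-2568A17.8, CLDND2 and ZNF175 were not called.

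**Figure D3:**
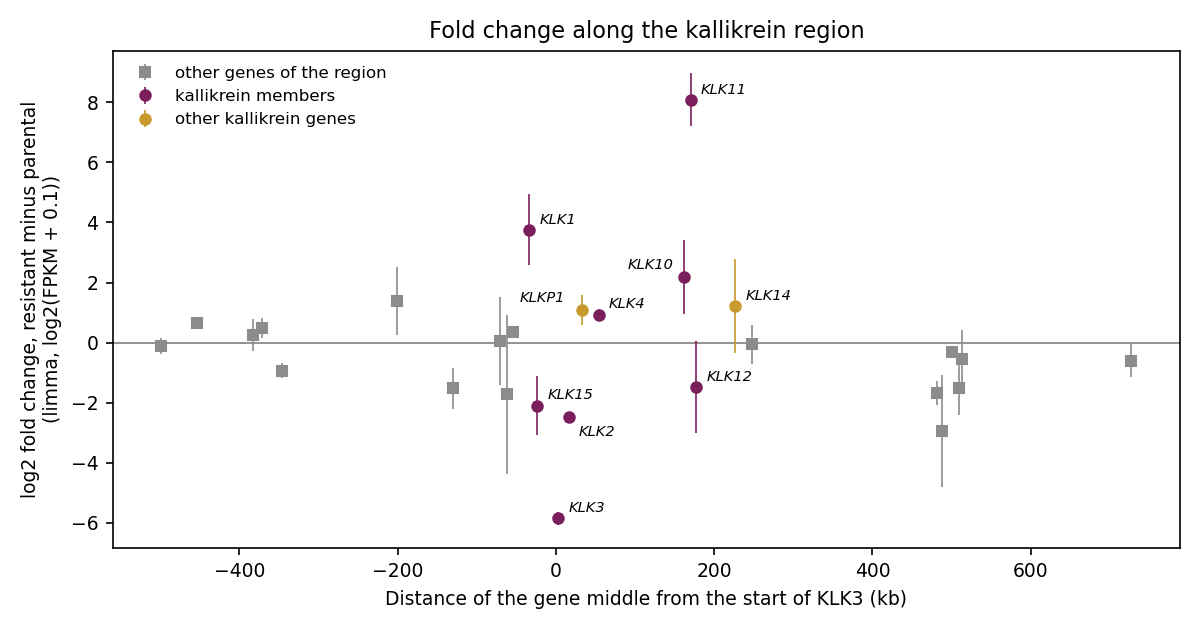
Log2 fold change of resistant over parental cells (limma, log2(FPKM + 0.1)) against the distance of each gene's middle from the start of KLK3, in kb. Bars are 95% intervals, and genes that were not tested or had a group wholly at 0, such as KLK8 and KLK13, are left out. KLK15, KLK3 and KLK2 lie below 0 next to each other, with KLK1 above 0 on one side and KLKP1, KLK4, KLK10 and KLK11 on the other, where KLK12 (-1.48) lies below 0 and KLK14 above it, neither of them called, and the 17 other genes lie between -2.94 and 1.39.

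Of 16 transcription factors and coregulators of KLK2 and KLK3 listed, all were tested, with a median log2 fold change of -0.20. In this list 4 were called higher, 8 lower and 4 were not called, against 44.4% of all genes tested called in either direction. FOXA1, a pioneer factor that opens chromatin in prostate cells, was not called, at 157, 215 and 153 FPKM against 141, 167 and 158 FPKM (log2 fold change -0.16, limma, Benjamini-Hochberg adjusted p = 0.412). SPDEF, an epithelial ETS factor, was lower at 158, 154 and 148 against 95.6, 94.9 and 91.5 FPKM (log2 fold change -0.71, SE 0.06, limma, Benjamini-Hochberg adjusted p = 0.00022). Its fall was smaller than that of KLK3 or KLK2. HOXB13, a prostate homeobox factor, was not called, with 104, 96.1 and 110 against 97.8, 105 and 104 FPKM (log2 fold change -0.02, SE 0.07, 95% interval -0.20 to 0.16, limma, Benjamini-Hochberg adjusted p = 0.884), a difference that turned positive under 4 other scalings. GATA2, which acts at enhancers of androgen-induced genes, was lower at 114, 105 and 114 against 83.2, 87.3 and 92.6 FPKM (log2 fold change -0.34, SE 0.07, limma, Benjamini-Hochberg adjusted p = 0.00998), but it did not pass the threshold in a fit without a mean-variance trend or under quantile normalization (limma, Benjamini-Hochberg adjusted p = 0.0661 and 0.0532). The lowest log2 fold changes of the list, looked up after the values were seen, were those of the coactivators NCOA1 and CREBBP (both -1.74). The highest, looked up in the same way, were those of NCOA3 (1.17), NCOA2 (0.80) and ARID1A (0.79), all called higher. EP300 was not called (-0.14). DHX9, an RNA helicase, was higher at 109, 120 and 130 against 148, 177 and 174 FPKM (log2 fold change 0.48, SE 0.10, limma, Benjamini-Hochberg adjusted p = 0.0105).

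Other serine proteases of prostate epithelium were split in direction. Of 15 listed, 11 were tested, with a median log2 fold change of -0.48. Of these, 5 were called higher and 5 lower, against 44.4% of all genes tested called in either direction. The 4 most abundant all fell. TMPRSS2, an androgen-regulated membrane protease, was at 267, 247 and 262 FPKM in parental and 66.8, 59.2 and 68.4 FPKM in resistant libraries (log2 fold change -1.996, SE 0.08, limma, Benjamini-Hochberg adjusted p = 1.55e-05). HPN (hepsin) went from 60.3, 57.0 and 53.3 to 11.6, 12.9 and 14.5 FPKM (log2 fold change -2.13). The matriptase gene ST14 went from 62.7, 60.0 and 60.9 to 25.3, 22.4 and 22.5 FPKM (log2 fold change -1.39), and PRSS8 (prostasin), an activator partner of matriptase, had a log2 fold change of -0.93. None of these 4 genes overlapped between the groups, which held for 54.8% of all genes tested. The 5 called higher, named after their values were seen, were FURIN (log2 fold change 1.56), PRSS21 (6.83), PRSS23 (3.92), PLAT (2.55) and HGFAC (1.81). PLAT and HGFAC were below 1 FPKM in every library. PRSS21 was at 0.149 FPKM or less in parental libraries, so that the size of its change depends on the pseudocount.

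Of 16 kallikrein inhibitors listed, 10 were tested, with a median log2 fold change of 0.18. Among these, 3 were called higher, 1 lower and 6 were not called, against 44.4% of all genes tested called in either direction. SPINT2, a membrane-bound Kunitz inhibitor, did not pass the test, at 331, 298 and 302 FPKM against 306, 350 and 328 FPKM (log2 fold change 0.08, limma, Benjamini-Hochberg adjusted p = 0.436). SPINT1, its relative that restrains matriptase and hepsin, was lower, at 111, 113 and 112 against 81.4, 76.7 and 87.3 FPKM (log2 fold change -0.46, SE 0.07, limma, Benjamini-Hochberg adjusted p = 0.0025). SERPINB6 was at 73.9, 62.2 and 67.4 against 51.4, 56.9 and 59.1 FPKM, without overlap but not called (log2 fold change -0.28, limma, Benjamini-Hochberg adjusted p = 0.0525). The trypsin inhibitor SPINK1 was above 0 in a single parental library, at 0.965 FPKM, and stood at 546, 607 and 630 FPKM in resistant libraries, which is more than the 15 kallikreins together in each of them. The other calls, named after their values were seen, were SPINK5, an inhibitor of skin kallikreins, with 0.0767, 0.195 and 0.237 against 5.10, 4.39 and 3.33 FPKM, and A2M, a broad protease trap, with 0, 0.0633 and 0 against 1.44, 5.05 and 4.59 FPKM.

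Of 21 kallikrein substrates and receptors, 13 were tested, with a median log2 fold change of -0.15. Here 4 were called higher, 6 lower and 3 were not called, against 44.4% of all genes tested called in either direction. The semenogelins, the main substrates of KLK3 in semen, were at or near 0, with SEMG1 listed at 0 in all libraries and SEMG2 at no more than 0.0357 FPKM. FN1 (fibronectin), a matrix protein that KLK2 and KLK3 can cleave, fell from 200.1, 204 and 236 to 36.2, 51.7 and 43.2 FPKM (log2 fold change -2.29, SE 0.14, limma, Benjamini-Hochberg adjusted p = 6.88e-05). IGFBP3, a carrier of insulin-like growth factors that KLK3 can cleave, rose from 1.19, 1.05 and 2.36 to 27.3, 30.2 and 30.1 FPKM (log2 fold change 4.25, SE 0.30, limma, Benjamini-Hochberg adjusted p = 0.000106). LAMA5, a laminin chain, was lower, with a log2 fold change of -0.64 (limma, Benjamini-Hochberg adjusted p = 0.0188), and F2RL1, a receptor that trypsin-like kallikreins can activate by cleavage, was not called (log2 fold change -0.03, limma, Benjamini-Hochberg adjusted p = 0.927).

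**Figure D4:**
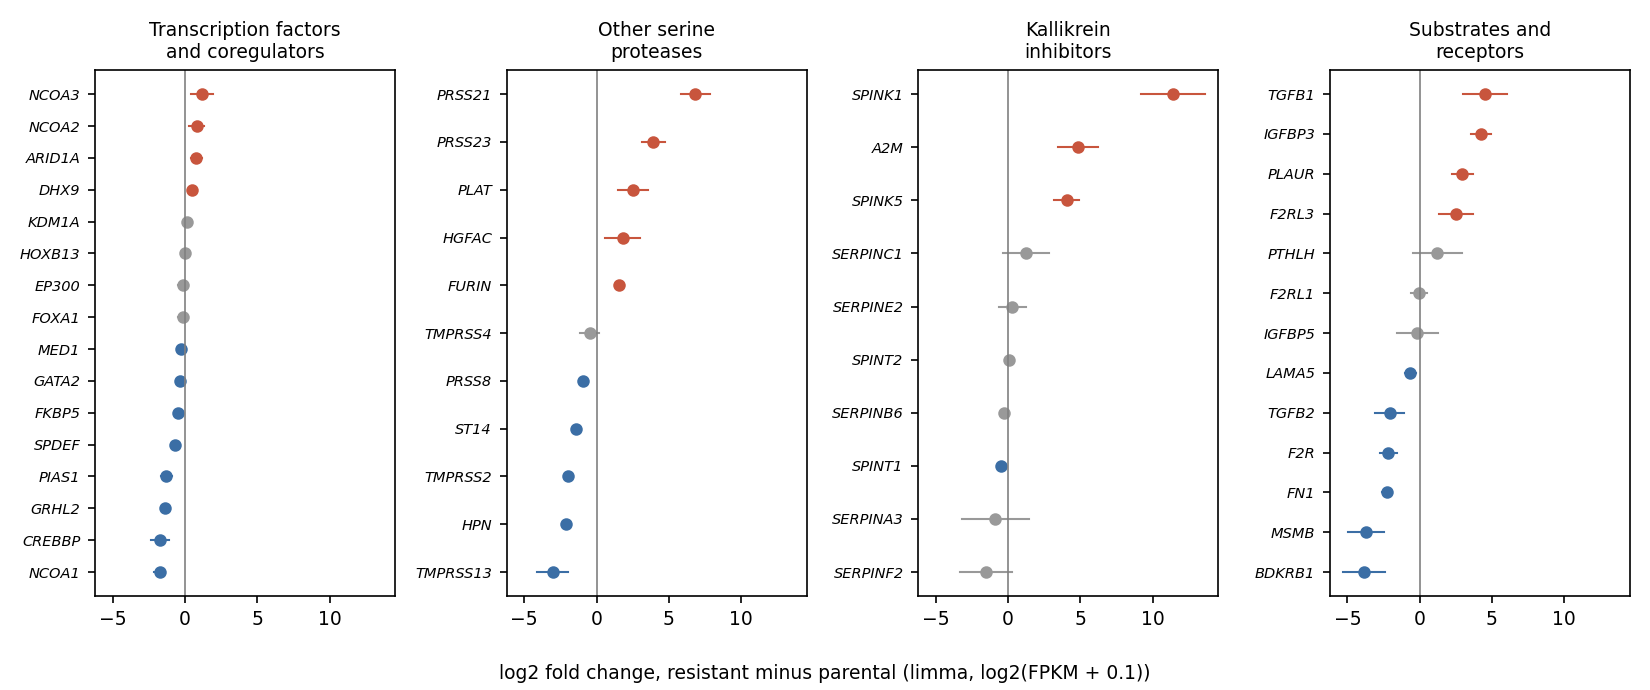
Log2 fold change of resistant over parental cells with 95% intervals (limma, log2(FPKM + 0.1)) for the tested genes of 4 lists. Red marks genes called higher, blue genes called lower and grey genes not called at an adjusted p of 0.05. SPINK1 (11.40) rose from 0.965 FPKM or less in parental libraries, so that the size of its change depends on the pseudocount. TMPRSS2 (-1.996) and FN1 (-2.29) fell.

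Markers of other cell types moved with the groups as well, while 44.4% of all genes tested were called in either direction. The luminal markers summed to 1660 to 1903 FPKM in parental and 1069 to 1128 FPKM in resistant libraries, with 1 of 11 markers called higher and 7 lower. The 8 neuroendocrine markers summed to 7.16 to 11.3 FPKM in parental and 209 to 233 FPKM in resistant libraries, and 6 of the 7 tested were called higher. ENO2 made up most of that sum, at 140, 124 and 152 FPKM in resistant libraries. The other markers called higher were SYP (log2 fold change 4.89), SCG3 (7.16), CHGB (6.57), SCG2 (2.78) and CHGA (2.29). CHGA was at 0.605 FPKM or less in every library, and SCG2 at 1.49, 0.704 and 0.819 FPKM in resistant libraries. No parental value of SCG3, CHGB, SCG2 or CHGA was above 0.149 FPKM, so the sizes of their changes depend on the pseudocount. NCAM1 was not called, and the neuroendocrine factor INSM1 was at 0.0558 FPKM or less in every library. Basal markers summed to 11.9 to 13.6 and then to 3.82 to 4.65 FPKM, with 1 of 3 tested called higher and 2 lower. Fibroblast markers summed to 29.1 to 30.4 and then to 15.4 to 20.7 FPKM, with 3 of 5 higher and 1 lower, and blood cell markers to 0.657 to 0.785 and then to 0.0837 to 1.18 FPKM, with 1 of 3 higher. The part of these shifts in the kallikrein changes was not tested, and in bulk RNA fewer expressing cells and less RNA per cell cannot be told apart.

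By the root mean square difference of centred log2 values over the 6 libraries, a description over 16332 genes compared, the genes closest in pattern to KLK2 were RP11-701H24.4 (0.0521), DTX2 (0.0696), UAP1 (0.0696), SREBF1 (0.0777) and RAB3B (0.0813). UAP1, an enzyme of UDP-N-acetylglucosamine synthesis, had 171, 162 and 174 FPKM in parental and 27.0, 31.8 and 29.0 FPKM in resistant libraries. SREBF1, a regulator of lipid synthesis, had 557, 505 and 589.9 against 106, 102 and 95.6 FPKM. For KLK3 the closest were RP11-354B3.1 (0.157), GRK1 (0.194), AC020571.3 (0.203), CTD-2384A14.1 (0.208) and LAMA3 (0.214). LAMA3, a laminin chain of basement membranes, was at 65.7, 68.7 and 77.4 FPKM in parental and at 1.01, 0.982 and 1.46 FPKM in resistant libraries, and GRK1, a rhodopsin kinase, at 18.0, 19.2 and 20.3 and then at 0.4003, 0.254 and 0.273 FPKM. RP11-354B3.1, AC020571.3 and CTD-2384A14.1 were listed at 0 in all resistant libraries, so that their likeness to KLK3 depends on the pseudocount. With 1 FPKM in its place their log2 differences were -2.90, -2.73 and -2.64, against -5.82 for KLK3, and those of GRK1 and LAMA3 were -3.95 and -5.06.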

How the data were processed

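RNA of 3 parental and 3 enzalutamide resistant C4-2B libraries was sequenced by the authors as 50 bp single-end reads with a stranded total RNA kit. Per the paper's methods they trimmed the reads with TrimGalore, aligned them with STAR to GRCh38 and estimated expression with Cufflinks on a GENCODE annotation. The submitters' processing notes name Trimmomatic 0.27, FastQC 0.10.1 and a mouse build, while the gene identifiers and intervals of the table are human and of GRCh38. The deposited table names no unit, and its values were taken as FPKM from these methods and the form of the values. It holds no counts, so no count test and no counting interval was possible.

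Groups came from the sample labels. log2(FPKM + 0.1) was compared with limma 3.58.1 in R 4.3.3 (mean-variance trend, two-sided, Benjamini-Hochberg over 24468 genes, those averaging 0.1 FPKM or more, threshold 0.05), and single values with exact permutation tests. The limma step was run on simulated data as a check of the code, which does not show how well it fits these data. Members and lists were chosen with earlier results of these data known. Named were the members, the other kallikreins, the 4 most abundant genes of each pathway list, GATA2 in any case, neighbours within 500 kb at a mean of 1 FPKM or more, and the 5 genes closest in pattern to KLK2 and KLK3. SEMG1, SEMG2, SPINK5, A2M and single cell type markers were named after their values were seen. The same holds for NCOA1, NCOA2, NCOA3, CREBBP, EP300, ARID1A, FURIN, PRSS21, PRSS23, PLAT and HGFAC. Some genes of the lists and of the region are not reported here and were left out of the counts and sums. Positions came from GENCODE v44, which matched 56980 of 58024 identifiers, and 28 symbols turned into dates were restored through their identifiers. Motifs and shared 50-base words were searched with Python 3.11.15 and coding sequences aligned with Biopython 1.88. The alternatives, 17 planned and 1 chosen after seeing the data, covered the pseudocount, filter, scaling, trend, replicate block, thresholds and each library left out.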

Additional observations from a re-analysis of the deposited data

How the results depend on the processing

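The 7 members called kept their direction under all 18 alternatives, except that KLK10 was not tested at a mean of at least 1 FPKM. KLK10 at an adjusted p under 0.01 and KLK4 at 2-fold lost the call. KLK3 had log2 fold changes between -5.92 and -5.75, KLK2 between -2.55 and -2.38, KLK15 between -2.55 and -1.63, KLK4 between 0.88 and 1.03 and KLK1 between 2.91 and 4.32, while KLK11 (5.44 to 9.70) and KLK10 (0.50 to 4.56) followed the pseudocount. Members called higher were 3 to 4 and lower 3 to 4, and 6 to 8 did not overlap between groups. Without any single library the counts were 4 higher and 3 lower, with 7 to 8 not overlapping. Over all genes, 5405 were called higher and 5463 lower. The lower count was 3570 at an adjusted p under 0.01 and 3320 where at least 2-fold was required, as fewer genes pass a stricter rule. Leaving out one library gave 4477 to 4990 genes higher and 4558 to 5200 lower. HOXB13, not called, turned positive under median of ratios scaling (0.0827), quantile normalization (0.157), with short non-coding genes left out by type (0.0650) or also by symbol, the alternative chosen after seeing the data (0.0309), and, with -0.0676 to 0.0287 over the libraries left out, without parental replicate 2 or resistant replicate 0. The cause was not tested.

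The libraries share only replicate numbers. With the number as a replicate block, 4670 genes were called higher and 4793 lower, and the calls of the 7 members stayed. Deviations of libraries with the same number correlated at 0.00802, 0.0165 and -0.00301 over the genes tested, so that no pairing by number was seen. A shared effect that is small or limited to few genes would not show in these correlations. Values under 1 FPKM rest on few reads at the estimated depth, which limits KLK5, KLK6, KLK10 and KLK12.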
